A study of Mus musculus with 4 samples.

Results

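Deletion of *Ikbkb* from hepatocytes was examined in female mice by subtracting the log2 signal of the female Wt array from that of the female *IkbkbΔhep* array, gene by gene. A gene was described where a probe set names that gene alone and its mean log2 signal over both female arrays exceeds 5.83, and 13008 of 19938 genes (65.2%) met this rule. The limit of 5.83 is the level below which 95% of 1212 olfactory and vomeronasal receptor probe sets lie, genes that liver does not use. Female *IkbkbΔhep* mice carry floxed *Ikbkb* alleles and a Cre recombinase that acts in hepatocytes, so the gene is lost there and kept in the other liver cells, and the promoter that drives this Cre is not given in the sources used here. Female Wt mice have the floxed alleles without the Cre, so the Cre itself also differs between the groups. Both groups are described as C57BL/6J and were fed HCFD, a diet rich in cholesterol and saturated fat, for 20 weeks from 2.5 months of age. Male *IkbkbΔhep* and male Wt mice on the same diet and schedule form the other pair of the 4 arrays, and their values are set beside the female ones. Each group is 1 array of liver RNA pooled from several mice, so there is no spread between replicates and no p-value, and every value is an effect size on the log2 scale.

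IKKβ, the product of *Ikbkb*, is the kinase of the IKK complex that phosphorylates IκB and so sets NF-κB free to enter the nucleus. In hepatocytes this route is driven by tumour necrosis factor, interleukin-1 and ligands of Toll-like receptors, and it is known for switching on acute phase proteins, chemokines and survival genes. Whole liver also holds Kupffer cells, other immune cells, stellate cells and endothelium, in which *Ikbkb* was intact, and a bulk signal cannot tell fewer cells of a type from less RNA per cell.

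*Ikbkb* itself had a log2 signal of 8.64 in Wt and 8.08 in *IkbkbΔhep* females, a log2 ratio of -0.56. The male pair gave 8.40 and 7.93. The remaining signal was well above the limit in both sexes, and which exons its probe set covers is not known here. The hepatocyte marker *Alb* (albumin) had 13.74 and 13.67 in female Wt and *IkbkbΔhep*, and the Kupffer cell lectin *Clec4f* 9.57 and 9.56. *Krt19* of bile ducts (6.05 and 5.91) and *Cd3e* of T cells (6.59 and 6.63) were close to the limit, and *Adipoq* of fat cells (4.21 and 4.07) was below it. The arrays labelled female had the X-inactivation RNA *Xist* at 10.56 and 10.53 and the Y-linked *Eif2s3y* below the limit. The labelled tissue and sex thus matched their defining markers.

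The genes described had a median female log2 ratio of -0.02 and an SD of 0.18, with the central 95% of genes between -0.37 and 0.32. In males the median was -0.01 and the SD 0.15. The receptor probe sets, which gauge noise, had an SD of 0.23 in the female pair, and 1.82% of them were 1.5-fold or more apart in either direction. With 1.5-fold as the threshold, 30 genes (0.231% of those described) were higher in female *IkbkbΔhep* and 66 (0.507%) were lower. At 2-fold the counts were 7 and 14. In 9 of the higher and 7 of the lower genes 1 female array lies below the limit, and a bound, written as at least so many fold, then replaces the fold, taking the limit for the dim array. In males 21 of the same genes described (0.161%) were higher and 28 (0.215%) lower. The female set leaned downwards, and log2 ratios below 0 made up 56.4% of genes in females and 53.2% in males. These shares depend on scaling. The female median was 0.01 with each array centred on its median, -0.001 after loess and 0.004 after quantile normalization. The 56.4% is therefore not the share to read beside counts made after another scaling. Lower genes were spread over the range of signal, with 14, 18, 17 and 17 in 4 equal groups of genes ordered from dim to bright, whereas the higher genes numbered 10, 7, 9 and 4. At the limit itself, *Gpr137c* (mean signal 5.83002) and *Apbb1* (5.83014) were just inside, with female log2 ratios of 0.09 and 0.01, and *Gnao1* (5.82997) and *Mir103-2* (5.82992) were just outside, with -0.16 and 0.02.

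**Figure D1:**
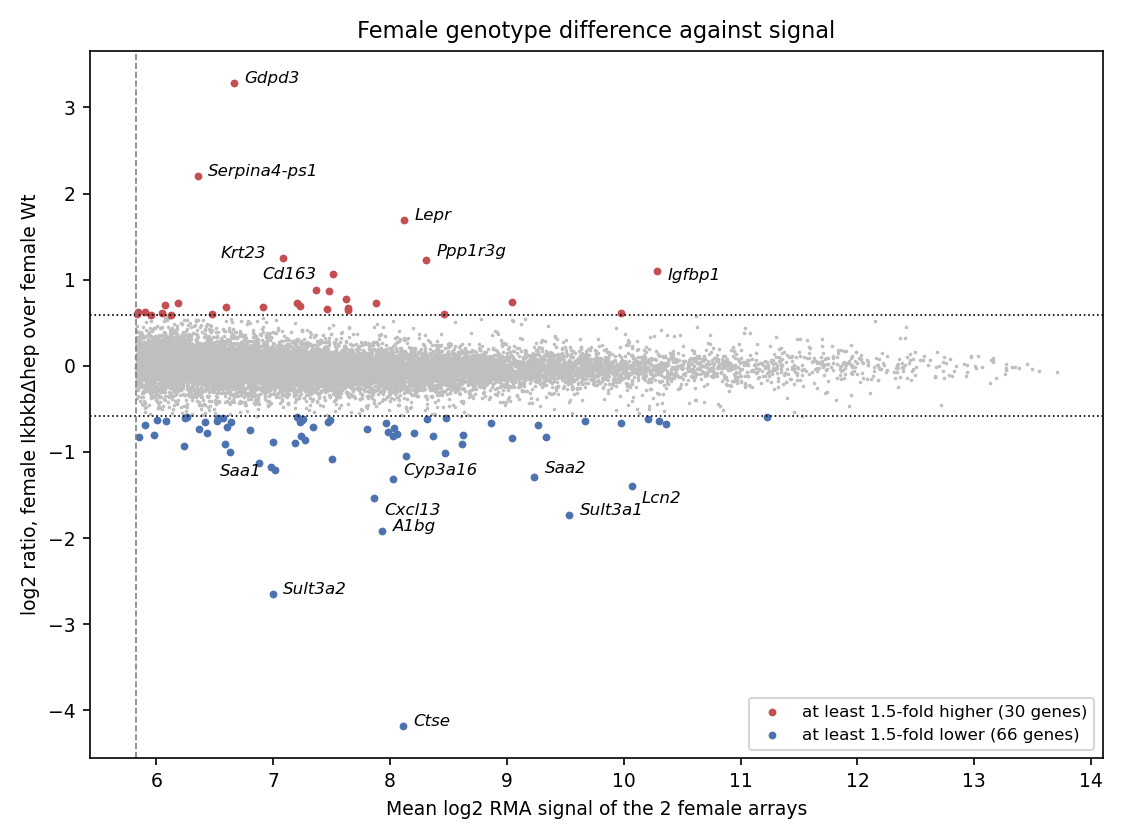
Each point is a gene described, with its mean log2 signal on both female arrays on the x axis and its log2 ratio of *IkbkbΔhep* over Wt on the y axis. The dashed line is the limit of 5.83 and the dotted lines mark 1.5-fold. *Ctse* at -4.18 and *Gdpd3* at 3.28 stand farthest out, and the 66 lower genes (blue) lie at all levels of signal, whereas 10 of the 30 higher genes (red) lie in the dimmest of 4 equal groups of genes.

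The same genes were read off in the male pair. Of the 30 higher genes, 19 differed by less than 1.2-fold between the male arrays, beside 93.7% of all genes described, and the median log2 ratio of the 30 was 0.70 in females and 0.04 in males. Of the 66 lower genes, 42 were within 1.2-fold in males, with medians of -0.76 and -0.03. Only 2 of the higher genes (*Gdpd3* and *AI506816*) and 3 of the lower genes (*Ctse*, *Snrpe* and *BC023105*) reached 1.5-fold in the same direction in males, and 2 lower genes (*Gpnmb* and *Cyp17a1*) reached it in the opposite direction. With 1 array per group no test of a sex difference was made. Across all genes described, which are not independent replicates, female and male log2 ratios had a Pearson correlation of 0.13 and a Spearman correlation of 0.05.

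The genes that differed alike in both sexes include the farthest out. *Ctse*, which encodes the endosomal protease cathepsin E, had log2 signals of 10.20 in Wt and 6.02 in *IkbkbΔhep* females, an 18.1-fold difference, against 10.28 and 6.06 in the males. *Gdpd3*, a phospholipase D-type enzyme that acts on lysophospholipids, had 5.02 and 8.30 in the females, at least 5.56-fold higher, and 5.59 and 8.49 in the males. The gap of *Ctse* was thus nearly the same in the sexes, while that of *Gdpd3* is known only as a bound, since both Wt signals lie below the limit. *Snrpe*, a core protein of spliceosomal ribonucleoproteins, had 8.98 and 7.97 in females (2.02-fold lower), and *BC023105* had 7.70 and 6.84 (1.82-fold lower). *AI506816* had 5.83 and 6.43 in the females and 6.68 and 7.35 in the males, so it was higher with deletion in both.

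**Figure D2:**
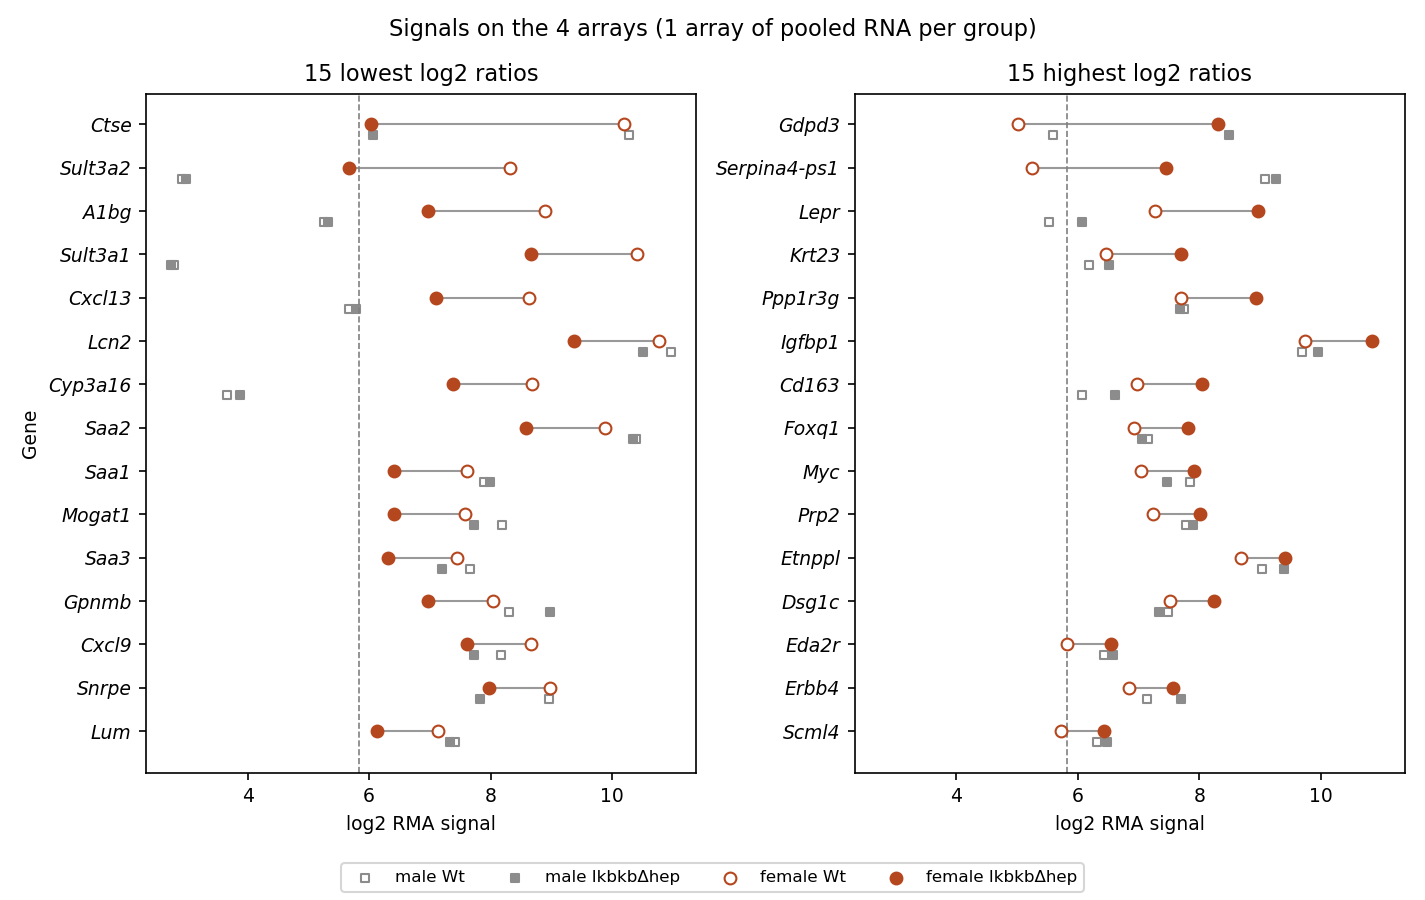
Log2 signals of the 15 lowest and 15 highest female log2 ratios on the 4 arrays, with females as circles and males as squares, open where Wt and filled where *IkbkbΔhep*. The dashed line is the limit of 5.83. *Ctse* has nearly the same gap in both sexes and *Gdpd3* lies far to the right with deletion in both, whereas the male pair is close together for *Saa2* (10.39 and 10.35) and *Ppp1r3g* (7.75 and 7.68) and lies below the limit for *Sult3a1* and *Cyp3a16*.

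Genes that female liver expresses more than male liver, some of them of steroid or xenobiotic metabolism, were among the lowest in female *IkbkbΔhep*. *Sult3a2*, a sulfotransferase, had log2 signals of 8.32 in Wt and 5.67 in *IkbkbΔhep* females, at least 5.63-fold lower. *Sult3a1*, its close relative, had 10.40 and 8.67 (3.33-fold lower). *A1bg*, a secreted plasma glycoprotein, had 8.89 and 6.97 (3.79-fold lower). In all 3 cases both male signals lay below the limit, from 2.74 to 5.32. The female *IkbkbΔhep* signal of *Sult3a1* and *A1bg* lay between this and female Wt, and that of *Sult3a2* was itself below the limit. *Cyp3a16*, a steroid-hydroxylating cytochrome P450, had 8.68 and 7.37 in the females (2.48-fold lower) and 3.66 and 3.88 in the males. *Cyp17a1*, the steroid 17α-hydroxylase, had 10.51 and 9.89 in the females (1.54-fold lower). Probe sets of close relatives such as *Sult3a1* and *Sult3a2* can bind each other's RNA, and how far they do so is not known here.

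Not every female-predominant gene was lower. Of the 21 genes described in this list, 4 were lower by 1.5-fold or more (*A1bg*, *Sult3a1*, *Cyp3a16* and *Cyp17a1*), none was higher, and 17 had log2 ratios below 0. Over all genes described 0.507% were lower by 1.5-fold or more and 56.4% lay below 0. The median of the list was -0.22 in females and 0.05 in males. Among members chosen after their values were seen, *Cyp2b10*, the phenobarbital-inducible P450, had 7.20 and 6.75 and the organic anion transporter gene *Slc22a27* 10.44 and 10.06. Other members so chosen, *Cyp2b9* (12.42 and 12.46) and *Cyp2b13* (11.67 and 11.63), were level between the female arrays, as was the female-specific repressor *Cux2* (7.48 and 7.59). Some members were therefore lower and others level.

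**Figure D3:**
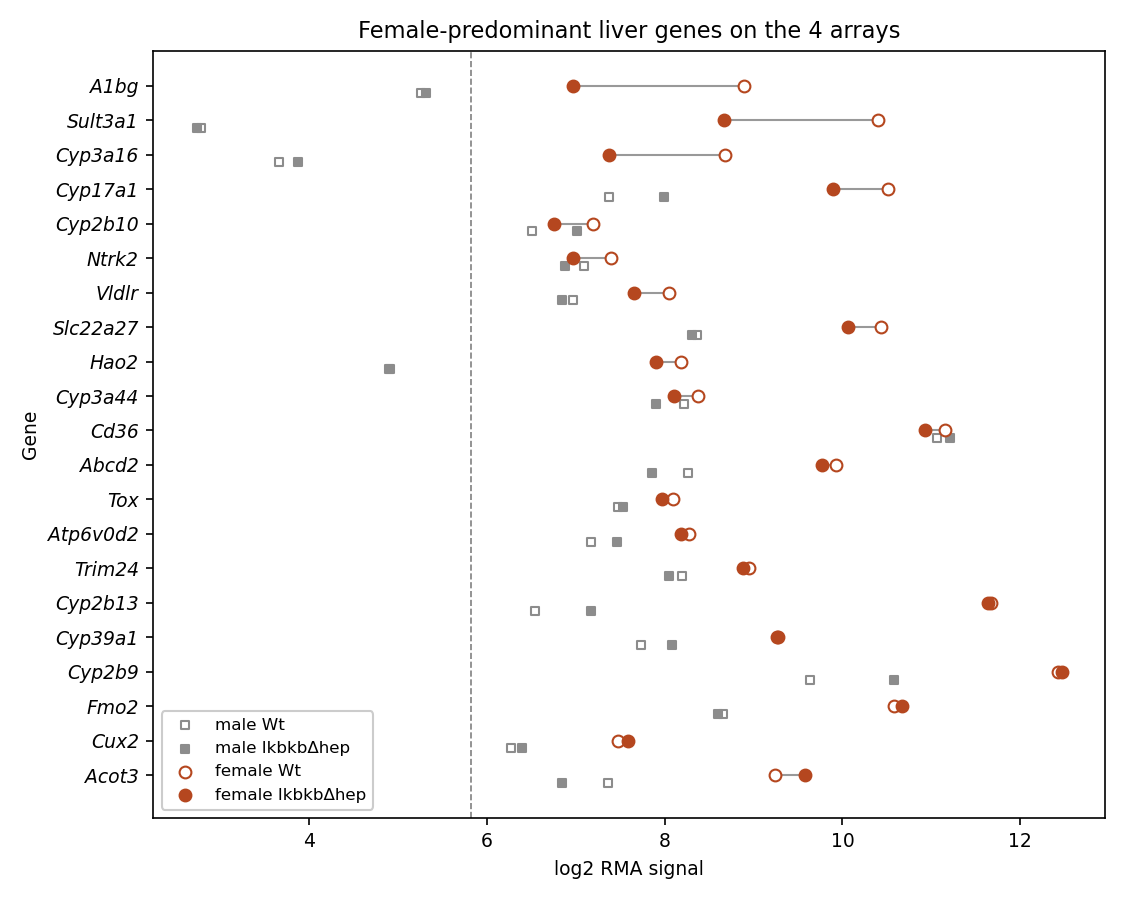
The 21 female-predominant genes described on the 4 arrays, ordered by female log2 ratio, with log2 signal on the x axis, circles for females, squares for males, open for Wt and filled for *IkbkbΔhep*. The dashed line is the limit of 5.83. The *IkbkbΔhep* circles of *A1bg*, *Sult3a1* and *Cyp3a16* lie 1.31 to 1.92 log2 units to the left, whereas *Cyp2b9*, *Cyp2b13* and *Cyp39a1* have coinciding circles.

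Male-predominant genes gave 1 large difference, where 0.231% of all genes described were higher by 1.5-fold or more. *Serpina4-ps1*, a serpin pseudogene, had a log2 signal of 5.25 in Wt and 7.46 in *IkbkbΔhep* females, at least 3.09-fold higher, while the males had 9.09 and 9.26. Female *IkbkbΔhep* thus lay between female Wt and the males. The other 17 members described stayed within 1.5-fold, and the median of all 18 was 0.02. 3 further genes with more signal in female than in male Wt were lower in female *IkbkbΔhep*: *Serpinb1a*, an inhibitor of neutrophil proteases, had 8.78 and 7.96 in the females and 5.89 and 5.74 in the males, *Slc22a29*, an organic anion transporter gene, had 7.70 and 6.99 against 6.27 and 6.08, and *9030619P08Rik* had 8.78 and 8.18 against 6.93 and 6.96. These 3 were picked after their values were seen.

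Acute phase proteins, secreted by hepatocytes in inflammation, gave 5 lower genes, of which 4 are among the 20 lowest of all. Of the 35 described, 5 were lower by 1.5-fold or more, beside 0.507% of all genes described, and none was higher. Log2 ratios below 0 were found in 32, a share to be read beside the 56.4% of all genes described. The median was -0.13 in females and -0.02 in males. *Lcn2*, which encodes the siderophore-binding lipocalin-2, had log2 signals of 10.76 in Wt and 9.37 in *IkbkbΔhep* females (2.63-fold lower), against 10.97 and 10.5 in the males. The serum amyloid A genes, whose products travel on high-density lipoprotein, showed the same direction. *Saa2* had 9.88 and 8.58 (2.46-fold lower), *Saa1* had 7.61 and 6.41 (2.31-fold lower), and *Saa3* had 7.44 and 6.31 (2.19-fold lower). Their male log2 ratios were -0.04, 0.11 and -0.46. *Orm2*, an α1-acid glycoprotein, had 9.61 and 8.93 (1.6-fold lower) and a male log2 ratio of 0.02. *Saa1* and *Saa2* are near-identical in sequence, so their probe sets may share signal. Other members seen to lie below 0 include haptoglobin, *Hp* (12.94 and 12.49), the constitutive *Saa4* (11.05 and 10.59) and serum amyloid P, *Apcs* (10.51 and 10.07). *Hamp*, which encodes the iron hormone hepcidin, went the other way, with 10.82 and 11.25 in females and a male log2 ratio of -0.63. The number of members below 0 depends on scaling, since 25 of 35 lie below 0 when each array is centred on its median, while 5 reach 1.5-fold under each scaling tried.

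Interferon-stimulated genes, which interferon signalling through STAT proteins switches on against viruses, had log2 ratios below 0 nearly throughout, and a small number passed 1.5-fold. Of the 36 described, 6 were lower by 1.5-fold or more, beside 0.507% of all genes described, none was higher and the other 30 were within 1.5-fold. Below 0 lay 35 members in females and 20 in males. The median was -0.28 in females and -0.02 in males. Under each scaling tried, 35 members were below 0, and 5 or 6 were lower by 1.5-fold. *Cxcl9*, a chemokine that attracts activated T cells, had log2 signals of 8.66 in Wt and 7.61 in *IkbkbΔhep* females (2.07-fold lower) and a male log2 ratio of -0.44. *Bst2*, the tetherin that holds budding virus at the cell surface, had 9.46 and 8.62 (1.78-fold lower). *Gbp3*, a guanylate-binding GTPase of cell-autonomous defence, had 8.40 and 7.67 (1.65-fold lower). All 3 had both arrays well above the limit. *Mx2*, a dynamin-like antiviral GTPase, had 6.40 and 5.76, at least 1.49-fold lower. *Usp18*, which removes the ubiquitin-like ISG15 and damps interferon signalling, had 7.56 and 6.94 (1.55-fold lower). *Oas1a*, a 2′-5′ oligoadenylate synthetase, had 6.83 and 6.22 (1.52-fold lower). In the males *Mx2*, *Usp18* and *Oas1a* had log2 ratios of 0.42, 0.57 and 0.45, which did not reach 1.5-fold. The only member above 0 in females was *Irf9* (7.85 and 7.95), a subunit of the interferon-activated transcription factor.

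Interferon-related genes outside the list were lower too, among them *Ifi44l* (6.27 and 5.44, at least 1.35-fold), *Gm12250* (7.18 and 6.43, 1.68-fold), *Gbp9* (7.80 and 7.17, 1.55-fold) and *Herc6* (8.62 and 8.01, 1.53-fold). They were grouped after their values were seen, and their male log2 ratios were -0.48, 0.04, 0.10 and -0.11. The RNA sensor *Tlr7* had 6.70 and 5.77, at least 1.83-fold lower.

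The promoters of the lower genes were searched because members of the interferon list were lower together. The interferon motif was thus chosen after these values were seen, so its share among the lower genes is not an independent check. The windows run from 250 bases before to 50 bases after the start of a gene in RefSeq on GRCm38.p6, and 46 of the 66 lower genes and 10374 of the 13008 genes described had one. The core of the interferon-response element, GAAANNGAA on either strand, was found in 14 of the 46 (30.4%), in 2 of 23 higher genes (8.7%) and in 8.53% of all windows. It was found in 15 of 27 windows of the interferon list (55.6%) and in 10 of 42 of the lower genes outside that list (23.8%), among them *Ifi44l*, *Gm12250*, *Saa3*, *Sult3a1* and *Snrpe*. The matches among the lower genes include *Bst2*, *Cxcl9*, *Gbp3* and *Oas1a* of the interferon list. *Ifi44l* and *Gm12250* were grouped as interferon-related above after their values were seen. The NF-κB consensus was found in 3 of the 46 (6.52%) and in 12.4% of all windows, and the STAT element, TTCNNNGAA, in 6 (13%) and 8.08%. The motifs can share bases with one another, and 2 cores can overlap. A match describes these letters and is not a measured binding site. The 150 bases before the start of *Gbp3* (chr3:142559894-142560043, plus strand), *Oas1a* (chr5:120907526-120907675, minus strand) and *Bst2* (chr8:71537473-71537622, minus strand) are shown 5′ to 3′ on the strand of the gene, since each holds a pair of overlapping cores, in capitals, and each gene was lower in female *IkbkbΔhep*.
Gbp3: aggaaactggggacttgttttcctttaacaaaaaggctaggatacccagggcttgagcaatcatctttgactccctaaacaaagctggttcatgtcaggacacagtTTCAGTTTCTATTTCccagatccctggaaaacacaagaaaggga
Oas1a: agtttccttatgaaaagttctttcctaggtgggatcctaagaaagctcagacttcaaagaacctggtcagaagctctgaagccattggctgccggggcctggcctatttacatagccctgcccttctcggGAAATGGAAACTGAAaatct
Bst2: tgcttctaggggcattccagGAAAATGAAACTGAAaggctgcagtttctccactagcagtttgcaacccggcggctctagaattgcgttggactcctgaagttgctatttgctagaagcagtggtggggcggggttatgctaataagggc
The pair of cores starts 44 and 38 bases before the start in *Gbp3*, where it reads on the opposite strand, 20 and 14 bases before it in *Oas1a*, and 130 and 124 bases before it in *Bst2*.

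Among antigen presentation genes, 3 of MHC class II and none of MHC class I were lower by 1.5-fold or more. MHC class II molecules show peptides to helper T cells and are made by macrophages, dendritic cells and B cells. Of 10 genes described, 3 were lower by 1.5-fold or more and none higher, 9 lay below 0, and the median was -0.29 in females and -0.04 in males. Beside these counts, 0.507% of all genes described were lower by 1.5-fold or more and 56.4% lay below 0. Without the filter on dim genes the female median was -0.16. *Cd74*, the invariant chain, had log2 signals of 9.75 in Wt and 8.92 in *IkbkbΔhep* females (1.77-fold lower). *H2-Aa*, the α chain of H2-A, had 10.69 and 10.02 and *H2-Ab1*, its β chain, 10.31 and 9.65, both 1.59-fold lower. Their male log2 ratios were 0.08, 0.03 and -0.05, close to equality. *Ciita*, the master activator of the class II genes, had 6.37 and 6.21. Of 13 genes of MHC class I presentation, none reached 1.5-fold and 12 lay below 0, with a median of -0.21 against -0.05 in males. The 3 farthest from 0 were the class I gene *H2-Q4* (-0.47), the immunoproteasome subunit gene *Psmb8* (-0.41) and the proteasome activator gene *Psme2* (-0.30).

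**Figure D4:**
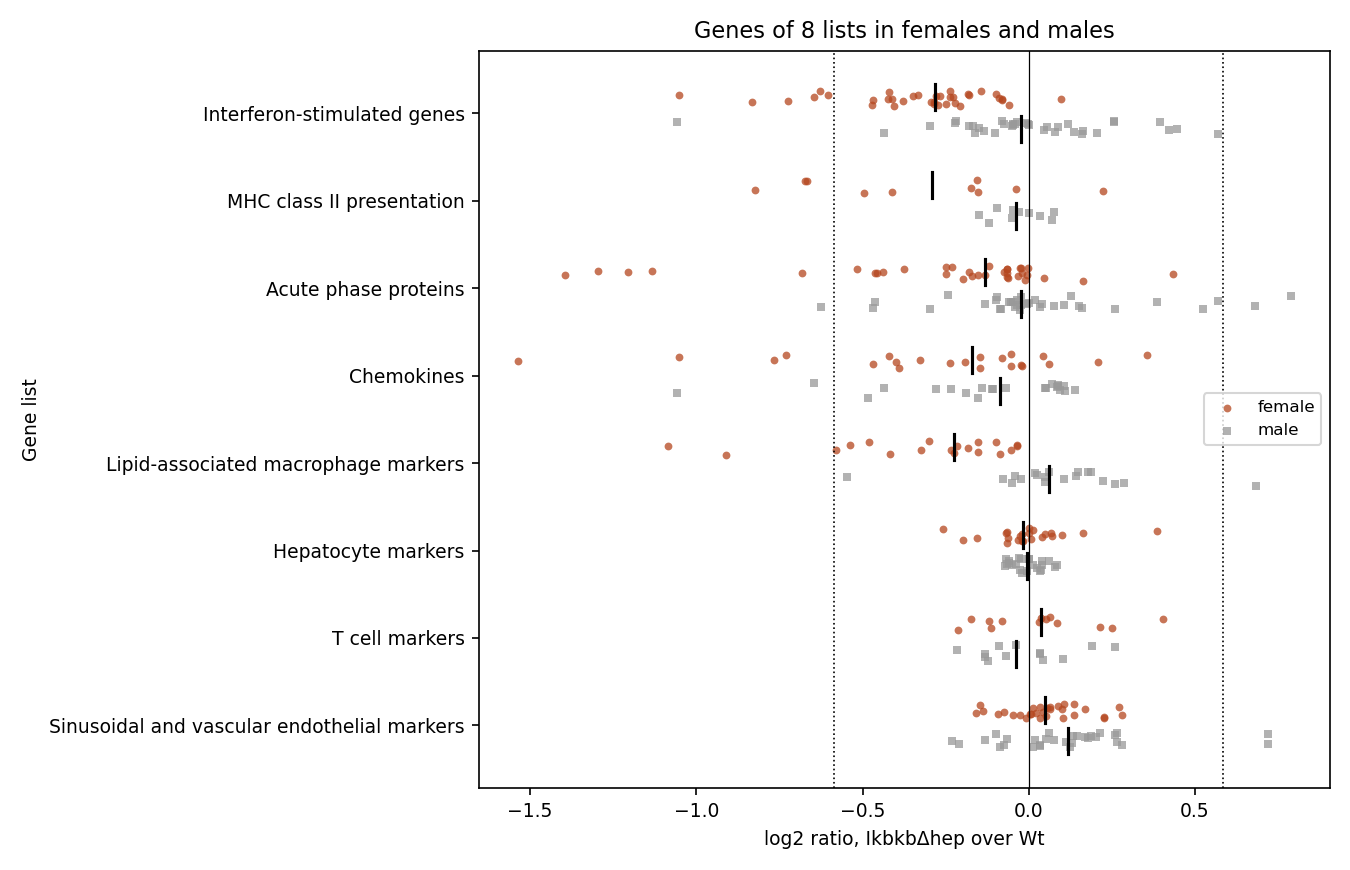
Log2 ratios of *IkbkbΔhep* over Wt of the genes described in 8 lists, with circles for females, squares for males, black bars for the medians and dotted lines at 1.5-fold. The female points of the interferon list lie left of 0 except 1, with a median of -0.28 against -0.02 in males, whereas the hepatocyte markers centre on -0.02 in females.

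Chemokines, which guide leukocytes into tissue, were lower by 1.5-fold or more for 4 of 22 genes described, beside 0.507% of all genes described. Their median was -0.17 in females and -0.09 in males. *Cxcl13*, the B cell chemokine, had log2 signals of 8.63 in Wt and 7.09 in *IkbkbΔhep* females (2.90-fold lower), and both male signals were below the limit, at 5.67 and 5.78. *Ccl5*, made by T and NK cells, had 8.36 and 7.60 (1.70-fold lower). *Ppbp*, a platelet chemokine, had 6.73 and 6.0 (1.66-fold lower). *Cxcl9* was the other one. None was higher, and 10 of the 32 chemokine genes measured were not above the limit, so their levels were not compared.

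The pathway of the deleted kinase itself had no gene at 1.5-fold in females, its own gene included. Of 30 members of the IKK and NF-κB pathway described, 19 lay below 0 in females, with a median of -0.07. In males 26 lay below 0, 1 was lower by 1.5-fold or more and the median was -0.12. Over all genes described 56.4% lay below 0 in females and 53.2% in males. After *Ikbkb*, the members farthest from 0 were *Tnfaip3*, the deubiquitinase A20 that ends NF-κB signalling (7.18 and 6.72), and *Ikbke*, an IKK-related kinase (7.96 and 7.67), and both were lower by a like amount in males, with log2 ratios of -0.38 and -0.29. Of 33 known NF-κB target genes, 5 were lower by 1.5-fold or more, beside 0.507% of all genes described, and none was higher. The median of these targets was -0.09 in both sexes. These 5 were *Lcn2*, *Saa1*, *Saa2*, *Saa3* and *Ccl5*, so 4 of them are also acute phase genes.

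Markers of macrophages gave 3 lower genes and 1 higher gene over both of their lists. All 19 genes described of the lipid-associated macrophage list, which marks the phagocytes that gather around fat-laden cells, had log2 ratios below 0 in females, against 5 in males, with medians of -0.22 and 0.06, and 2 were lower by 1.5-fold or more. Over all genes described 56.4% lay below 0 in females and 0.507% were lower by 1.5-fold or more. After centring each array on its median, 17 of 19 lay below 0. *Gpnmb*, a lysosomal glycoprotein of these cells, had log2 signals of 8.04 in Wt and 6.96 in *IkbkbΔhep* females (2.12-fold lower) and 8.30 and 8.98 in the males (1.61-fold higher). *Itgax*, the integrin CD11c, had 7.04 and 6.13 (1.88-fold lower) and a male log2 ratio of -0.55. Among the others, chosen after their values were seen, *Cd9* had 8.90 and 8.32, *Cd63* 6.99 and 6.45 and lipoprotein lipase, *Lpl*, 8.70 and 8.22. Summed over the list the log2 signal was 14.97 in Wt and 14.85 in *IkbkbΔhep* females. *Lpl* is in the adipocyte list too, and which cells the sum comes from is not known here.

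Kupffer cell markers, those of the resident liver macrophages, mostly had log2 ratios below 0, with 1 gene at 1.5-fold in each direction. Among all genes described, 0.507% were lower and 0.231% higher by that much. Of 21 described, 17 lay below 0, beside 56.4% of all genes described, and the median was -0.23 in females and 0.03 in males. The summed log2 signal of these markers was 13.90 and 13.77. *Cd207*, the lectin langerin, had 7.63 and 6.74 (1.86-fold lower). *Cd163*, the haemoglobin scavenger receptor, had 6.98 and 8.04 (2.09-fold higher) and a male log2 ratio of 0.55. *Clec4f*, the defining marker, differed by 0.02 on the log2 scale. The phagocyte genes *Clec7a*, the β-glucan receptor (8.17 and 7.44, 1.67-fold lower), and *Ly86*, a partner of the Toll-like receptor family (9.20 and 8.54, 1.58-fold lower), are in no list and were picked after their values were seen. The part of macrophage number in the lower interferon, MHC class II and chemokine signals was not tested.

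The other leukocyte lists were mixed, and many of their genes were below the limit. Their counts are to be read beside the 0.507% of all genes described that were lower by 1.5-fold or more. Of 13 T cell markers described none reached 1.5-fold, and the median was 0.04. Farthest from 0 were the adhesion molecule gene *Cd2* (0.40), the transcription factor gene *Bcl11b* (0.25) and *Foxp3* of regulatory T cells (0.21). Of 13 monocyte markers none reached 1.5-fold either, with a median of 0.06 in females against -0.13 in males, where 4 were lower. Farthest from 0 were the lysozyme gene *Lyz2* (-0.50), the nuclear receptor gene *Nr4a1* (0.44) and the fractalkine receptor gene *Cx3cr1* (0.39). Only 6 of 25 markers of NK and cytotoxic lymphocytes were described, and *Ccl5* and *Nkg7*, a granule protein (6.84 and 6.20, 1.56-fold lower), were lower. The male log2 ratios of *Ccl5* and *Nkg7* were -0.19 and -0.49. Below 0 lay 4 of the 6 in females and all 6 in males, with medians of -0.31 and -0.18. Of 11 dendritic cell markers, 2 were lower, *Itgax* and *Bst2*, both members of other lists. Only 6 of 19 neutrophil markers were described, and *Lcn2*, which hepatocytes also make, was the one lower. Of 11 B and plasma cell markers, *Blnk*, an adaptor of the B cell receptor (6.87 and 6.27, 1.52-fold lower), was the one that reached 1.5-fold.

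In the lists of hepatocytes and of the remaining cell types at most 1 gene each reached 1.5-fold. Among all genes described, 0.507% were lower and 0.231% higher by that much. Of 23 hepatocyte markers none reached 1.5-fold, 12 lay below 0 and the median was -0.02. The members farthest from 0 were *Hal* of histidine breakdown (0.39), the P450 gene *Cyp3a11* (-0.26) and haemopexin, *Hpx* (-0.20). Their summed log2 signal was 17.22 in Wt and 17.20 in *IkbkbΔhep* females. Of 30 endothelial markers none reached 1.5-fold, with a median of 0.05 and 22 above 0, and the farthest were *Gpr182* (0.28), *Clec4g* (0.27) and *Wnt2* (0.23). Of 23 stellate cell markers, genes of the vitamin A-storing cells that make scar, none reached 1.5-fold, but 20 lay below 0. This share is to be read beside the 56.4% of all genes described. The median was -0.15 in females and 0.03 in males, while the defining gene *Lrat* had 8.55 and 8.38. The farthest were the metalloreductase gene *Steap4* (-0.52), desmin, *Des* (-0.36), and *Bmp5* (-0.30). Of 16 cholangiocyte markers *Tspan8*, a tetraspanin (6.32 and 5.69, at least 1.41-fold lower), was the one that reached 1.5-fold, and the median was -0.04. The adipocyte and erythroid lists had medians of -0.01 each with no gene at 1.5-fold. The farthest were *Lpl* (-0.48), *Pck1* (0.33) and the lipid droplet gene *Cidec* (-0.29) in the first, and the haem synthesis genes *Alas2* (-0.39) and *Fech* (0.22) and ankyrin, *Ank1* (0.19), in the second. Of 8 pancreatic acinar genes described the elastase gene *Cela3b* (5.59 and 6.22, at least 1.31-fold higher) reached 1.5-fold as measured, and the abundant *Ctrb1* had 6.31 and 6.40.

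**Figure D5:**
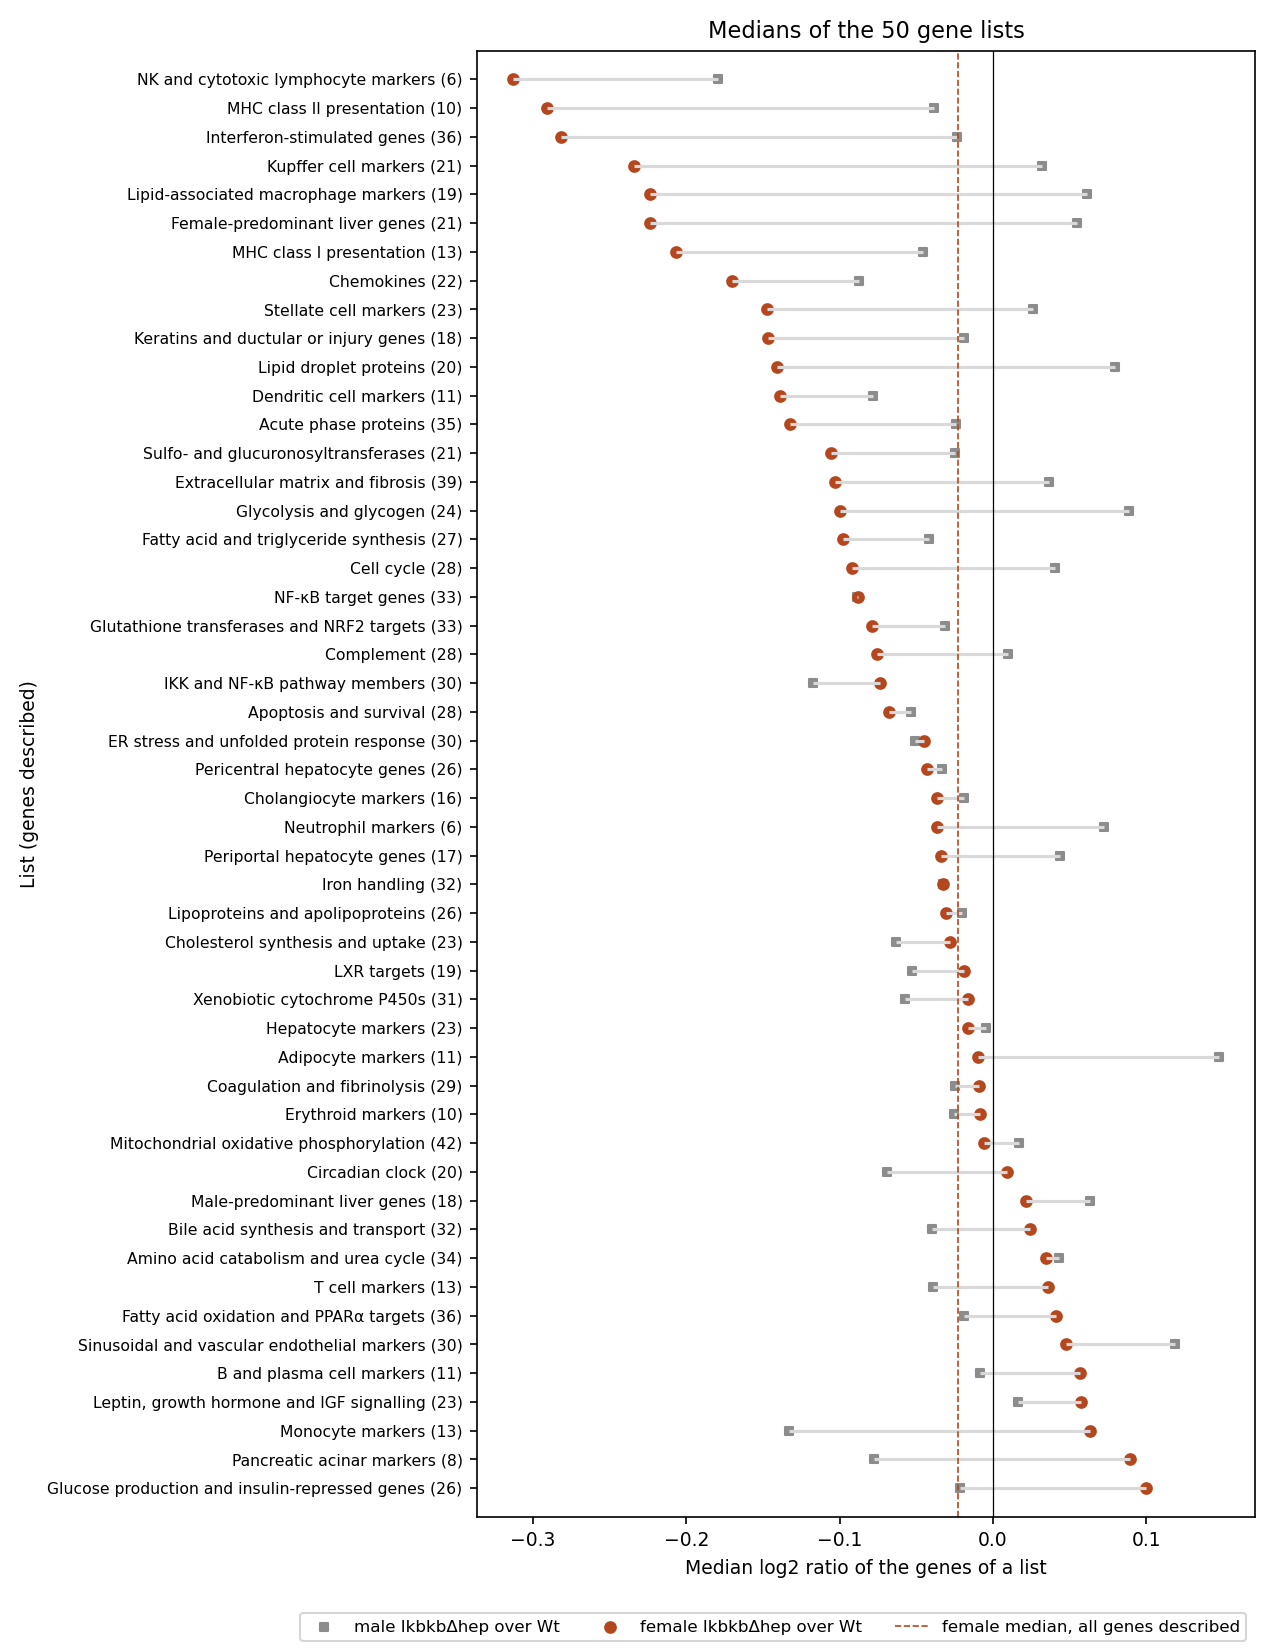
Median log2 ratio of *IkbkbΔhep* over Wt for each of 50 gene lists, with circles for females, squares for males, the number of genes described in brackets and a dashed line at the female median of all genes described. NK and cytotoxic markers (-0.31, of 6 genes), MHC class II (-0.29) and interferon-stimulated genes (-0.28) are at the low end in females with the filter used, and glucose production and insulin-repressed genes are at the high end, at 0.10.

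In the plot of list medians 38 of the 50 lists lie below 0 in females and 33 in males, where 56.4% and 53.2% of all genes described do. With each array centred on its median 25 lists lie below 0 in females. The order at the low end depends on the filter, since without one the NK and cytotoxic list has a median of -0.09 and MHC class II -0.16. Of the 50 lists 20 hold no gene at 1.5-fold in females. Of the 30 higher genes 10 belonged to a list, and of the 66 lower genes 36 did. The share of all genes described that belong to a list was not counted, so neither count has a yardstick. The lists were also chosen with earlier results of these data known.

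The higher genes of female *IkbkbΔhep* included genes that fasting, leptin and growth hormone govern. *Lepr*, the leptin receptor, had log2 signals of 7.27 in Wt and 8.97 in *IkbkbΔhep* females (3.24-fold higher), and 5.53 and 6.06 in the males. *Igfbp1*, an insulin-repressed binding protein of insulin-like growth factors, had 9.74 and 10.84 (2.14-fold higher), and 9.69 and 9.95 in the males. *Socs2*, a feedback inhibitor of growth hormone signalling, had 7.30 and 7.97 (1.59-fold higher) as the mean of a pair of probe sets with log2 ratios of 0.52 and 0.82. These were the 3 higher genes among 23 of leptin, growth hormone and IGF signalling, of which none was lower and the median was 0.06. Of 26 genes of glucose production and insulin repression 2 were higher (*Lepr* and *Igfbp1*), none was lower and 18 lay above 0. Their median was 0.10 in females and -0.02 in males. Among all genes described 0.231% were higher by 1.5-fold or more, and 56.4% lay below 0. Further members with positive ratios, chosen after their values were seen, were the kinase gene *Sik1* (8.89 and 9.43), the glucose-6-phosphatase gene *G6pc* (11.89 and 12.41), the insulin receptor substrate gene *Irs2* (7.64 and 8.09) and *Pck1*, which commits carbon to glucose synthesis (12.24 and 12.57). The hormone gene *Fgf21*, which fasting raises too, had 6.59 and 6.14. *Ppp1r3g*, which steers protein phosphatase 1 to glycogen, had 7.70 and 8.93 (2.35-fold higher) and 7.75 and 7.68 in the males, and was the one of 24 genes of glycolysis and glycogen that reached 1.5-fold.

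The remaining high genes came from varied families. *Krt23*, an intermediate filament keratin of stressed hepatocytes and ducts, had 6.46 and 7.71 (2.38-fold higher). *Foxq1*, a forkhead transcription factor, had 6.93 and 7.81 (1.84-fold higher), and *Myc*, the growth-promoting transcription factor, had 7.04 and 7.91 (1.82-fold higher), against 7.85 and 7.47 in the males. *Prp2*, named as a proline-rich salivary protein, had 7.24 and 8.01 (1.71-fold higher). *Etnppl*, which breaks down phosphoethanolamine, had 8.68 and 9.42 (1.67-fold higher), and 9.04 and 9.39 in the males. The desmosomal cadherin gene *Dsg1c* had 7.52 and 8.24 and the receptor tyrosine kinase gene *Erbb4* 6.84 and 7.57, both 1.65-fold higher. The male log2 ratios of *Dsg1c* and *Erbb4* were -0.15 and 0.56. *Nfil3*, a repressor that links the clock to metabolism, had 7.31 and 7.97 (1.57-fold higher). It was the one of 20 clock genes that reached 1.5-fold, beside 0.231% of all genes described that were higher. The other genes among the 20 highest were *Eda2r*, *Scml4*, *Trhde*, *Fzd9*, *Btbd19* and *Spry4*, from 1.58-fold to 1.65-fold as measured. Of the 30 higher genes 2 are olfactory receptors, *Olfr5* and *Olfr767*.

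Lipid metabolism gave single genes at 1.5-fold in each list or none, where 0.507% of all genes described were lower and 0.231% higher. *Mogat1*, a monoacylglycerol acyltransferase that feeds triglyceride synthesis in fatty liver, had log2 signals of 7.57 in Wt and 6.40 in *IkbkbΔhep* females (2.25-fold lower), against 8.19 and 7.73 in the males. It was the one of 27 genes of fatty acid and triglyceride synthesis, and of 20 lipid droplet genes, to reach 1.5-fold. The medians of these lists were -0.10 and -0.14 in females and -0.04 and 0.08 in males. Below 0 in females lay 20 of the 27 and 15 of the 20, beside 56.4% of all genes described. *Angptl8*, an insulin- and feeding-induced inhibitor of lipoprotein lipase, had 8.43 and 7.62 (1.75-fold lower) and a male log2 ratio of 0.17. It was the one of 26 lipoprotein genes that reached 1.5-fold, with a median of -0.03 for the list. *Slc10a2*, the bile acid uptake transporter of ducts and ileum, had 9.03 and 8.22 (1.74-fold lower) and a male log2 ratio of -0.44. It was the one of 32 bile acid genes that reached 1.5-fold. Cholesterol synthesis and uptake (23 genes), LXR targets (19 genes) and fatty acid oxidation (36 genes) had no gene at 1.5-fold and medians of -0.03, -0.02 and 0.04. Their members farthest from 0 were *Fdps* of isoprenoid synthesis (-0.39), *Lpin1*, a phosphatidate phosphatase (-0.34), and *Hmgcs1*, which makes HMG-CoA (0.26), then *Lpl* (-0.48), the sterol exporter gene *Abcg8* (0.36) and *Nr0b2*, the repressor SHP (0.35), and last *Fgf21* (-0.45), *Pdk4*, which shuts off pyruvate oxidation (0.35), and the acyl-CoA thioesterase gene *Acot3* (0.33).

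Detoxification lists had female medians from -0.11 to -0.02. Of 31 xenobiotic cytochrome P450s none reached 1.5-fold, with log2 ratios from -0.47 (*Cyp2c37*) to 0.45 (*Cyp2c54*) and a median of -0.02. *Cyp2b10* (-0.45) was the third farthest. Of 33 glutathione transferases and NRF2 targets none did, with a median of -0.08, and *Gstm2* (-0.49), the haem oxygenase gene *Hmox1* (-0.40) and *Gstp1* (-0.39) were the farthest. Of 21 sulfo- and glucuronosyltransferases *Sult3a1* reached it, beside 0.507% of all genes described that were lower. The median of that list was -0.11 in females and -0.02 in males. *Sult3a2*, described above, is not in that list. The oestrogen sulfotransferase gene *Sult1e1* had 8.67 and 8.36 in the females and 8.68 and 9.75 in the males. Periportal (17 genes) and pericentral (26 genes) hepatocyte lists, complement (28 genes), coagulation (29 genes), ER stress (30 genes) and mitochondrial oxidative phosphorylation (42 genes) had no gene at 1.5-fold and medians of -0.03, -0.04, -0.08, -0.01, -0.05 and -0.01. The complement genes farthest from 0 were *C1qb* (-0.37), *C1qa* (-0.31) and *Cfp* (-0.29), all made by myeloid cells, and those of ER stress were *Derl3*, of the route that clears misfolded proteins (0.50), *Sesn2* (0.38) and the chaperone gene *Hspa5* (-0.29). Among periportal genes *Apoa4*, an apolipoprotein of chylomicrons (11.82 and 11.23), lay just within 1.5-fold, followed by *G6pc* (0.52) and *Hal* (0.39). Among pericentral genes the farthest were *Cyp2c37* (-0.47), the vasopressin receptor gene *Avpr1a* (0.37) and the ammonium transporter gene *Rhbg* (-0.28). In coagulation they were urokinase, *Plau* (-0.28), *F11* (-0.22) and tissue factor, *F3* (-0.16), and in oxidative phosphorylation *Cox6a1* (-0.26), cytochrome c, *Cycs* (-0.25), and *Ndufs8* (0.14).

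Growth, death, matrix and iron genes each gave 1 to 3 differences. These counts are to be read beside all genes described, of which 0.507% were lower and 0.231% higher by 1.5-fold or more. *Mki67*, the proliferation antigen Ki-67, had log2 signals of 6.38 in Wt and 5.58 in *IkbkbΔhep* females, at least 1.47-fold lower, and *Myc* was the other of 28 cell cycle genes at 1.5-fold, in the opposite direction. *Mlkl*, the effector of necroptosis, had 7.65 and 6.83 (1.76-fold lower) and a male log2 ratio of 0.02, and was the one of 28 apoptosis and survival genes. *Lum*, the collagen-binding proteoglycan lumican, had 7.13 and 6.13 (2.0-fold lower) and a male log2 ratio of -0.08, and was the one of 39 matrix genes, whose median was -0.10. *Tfrc*, the transferrin receptor, had 8.46 and 7.67 (1.73-fold lower) and was, with *Lcn2*, lower among 32 iron genes. *Cd24a*, a surface glycoprotein of ductular and progenitor cells, had 6.55 and 5.97 (1.5-fold lower) and a male log2 ratio of -0.43. *Cd24a*, *Lcn2* and *Krt23* were the 3 of 18 keratin and injury genes. *Gpt2*, the mitochondrial alanine aminotransferase, had 10.62 and 9.98 (1.56-fold lower) and was the one of 34 amino acid and urea cycle genes. Among the 20 lowest genes in no list, *Zbtb16*, the zinc finger transcription factor PLZF, had 9.07 and 8.16 (1.87-fold lower) against 8.99 and 9.33 in the males. Also in no list, *D17H6S56E-5* had 7.44 and 6.56 (1.85-fold lower) and a male log2 ratio of -0.43.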

How the data were processed

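Liver RNA of female *IkbkbΔhep* and Wt mice was compared, with the male pair for reference. The deposited table holds log2 signals that the authors computed by RMA, which subtracts background, normalizes arrays together and yields a value per probe set. The submitters' processing notes name Affymetrix Expression Console, whose version is not given in the sources used here. Labelling used a whole-transcript kit and extraction RNeasy columns per the labels, whereas the methods name another mouse array and TRIzol. Of 35556 probe sets, 21789 have 1 symbol (21698 matched the gene table by Entrez ID), 1621 have several and were not named, and 12146 have none in the annotation used here. Probe sets of a gene were averaged. Signals were not compared between genes.

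There are no replicates, so no test was made, and the number of arrays limits the precision. Steps were tested on simulated data. The 50 gene lists (35 pathways, 15 cell types) and the members were chosen with earlier results of these data known. Named by rule were *Ikbkb*, the 20 highest and 20 lowest female log2 ratios, in each list the genes at 1.5-fold or else the 3 farthest from 0, genes opposite in the sexes, defining markers, genes nearest the limit, *Sult1e1* and *Gpnmb*. Any other gene was chosen after its values were seen. Alternatives were centring, loess and quantile scaling, other filters on dim genes, the brightest probe set, fold thresholds of 2 and of 25% above equality, and list means. Promoters are RefSeq windows on GRCm38.p6. Python 3.11.15, numpy 2.4.6, pandas 2.3.3, statsmodels 0.14.6 and matplotlib 3.10.9 were used.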

Additional observations from a re-analysis of the deposited data

Results flagged for a closer look

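Among the genes described, *Cyp17a1* and *Gpnmb* were 1.5-fold or more apart between the genotypes in both sexes and in opposite directions. The log2 ratio of *IkbkbΔhep* over Wt of *Cyp17a1* was -0.62 in females and 0.62 in males, and that of *Gpnmb* was -1.08 in females and 0.68 in males. *Cyp17a1* lies at the edge of the threshold: with each array centred on its median its female log2 ratio was -0.58, just short of 1.5-fold. Each sex has 1 array per genotype, so the sex difference of these genes was not tested.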

How the results depend on the processing

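Without a filter on dim genes, 79 genes were higher and 108 lower by 1.5-fold or more in female *IkbkbΔhep*, and 4 were opposite in the sexes. At 2-fold 7 were higher, 14 lower and 0 opposite. At a fold threshold 25% above equality 314 were higher and 488 lower. Under the other scalings and filters tried, 21 to 37 genes were higher, 56 to 70 lower and 2 or 3 opposite. After centring, *Cyp17a1* was no longer among the opposite genes. Of the 96 genes at 1.5-fold, 86 kept it with arrays centred on the median, 89 after loess, 83 after quantile normalization and 96 with the brightest probe set of a gene. Of the 50 lists 25 had a median below 0 after centring, against 38 as reported, and 29 to 39 under the other alternatives, and 34 kept the sign of their median under every alternative tried while 16 did not. All changes of list medians and named genes were smaller than 1 SD of the receptor probe sets, which is a loose yardstick. This SD, 0.23, is wider than most list medians, so staying within it says little about how stable a median is. The NK and cytotoxic median moved from -0.31 to -0.09 without the filter on dim genes. That of the chemokines moved from -0.17 to -0.36 with a stricter filter. The median over all genes described moved from -0.02 to 0.01 with centring. Signals near 5.83 are limited by background. No paired analysis was possible because each group has 1 array and the labels give no replicate numbers.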
